A study of Mus musculus with 12 samples.

Results

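Adding a fusion protein to 20 Gy of radiation was compared with 20 Gy given without it, in white blood cells carrying CD11c that had been sorted from tumours. The tumours came from B16-OVA, a melanoma cell line of mice that makes chicken ovalbumin as a model antigen, and grew in mice labelled WT. The 20 Gy + fusion protein group, called combined here, received 20 Gy on day 10 of growth together with 20 mcg of the fusion protein, and 10 mcg more on day 14. The 20 Gy group received the radiation on day 10 and no fusion protein, so radiation is common to both groups and, as far as the labels say, the protein is what differs. Live CD45+ CD11c+ cells were sorted on day 17, which was 7 days after treatment began. CD45 marks white blood cells, and CD11c is an integrin chain of dendritic cells that many macrophages and some natural killer (NK) and B cells also carry. The comparison used 6 of the series' 12 RNA libraries, 3 combined and 3 with 20 Gy, and a fusion protein group and an untreated group of 3 libraries each served for 1 further comparison. Members were all genes that reached a normalized count of 10 in 3 or more of the 12 libraries, which was 18274 of 55401 genes in the file. The parts of the fusion protein and any injection given to the other mice are not stated in the sources used here. Whether a group's libraries stand for different mice is not in the labels, and the p-values therefore cover the spread among libraries, which may be technical.

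Interferons are secreted proteins that cells release on sensing foreign or misplaced nucleic acid. Type I interferons signal through a receptor to transcription factors that bind the interferon-stimulated response element in the promoters of their target genes. Interferon gamma, made mainly by NK and T cells, acts through a receptor of its own. In tumours, conventional dendritic cells of type 1 (cDC1) take up dead cells and present their antigens to CD8 T cells, while those of type 2 (cDC2) mainly address CD4 T cells. Dendritic cells that have matured and turned on a regulatory program release the chemokine CCL22, which draws regulatory T cells, and the series is about that program and resistance to radiation.

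Normalized counts are given below in the order of libraries 1, 2 and 3 of each group. A gene is said to rise or fall where its adjusted p, from limma on log2(normalized count + 1) with Benjamini-Hochberg adjustment over all 18274 genes, was under 0.05. Fold changes are combined minus 20 Gy on that log2 scale, ± the SE of the fit, and the pseudocount of 1 makes the change of low genes look smaller.

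The 12 libraries held 14462032 to 23985496 reads in genes, 19395839, 23985496 and 23872118 in the combined group and 17544168, 15079786 and 18920638 in the 20 Gy group. The CD45 gene Ptprc had a normalized count of 46313, 43510 and 38593 in the combined libraries, against 44198, 40639 and 30925 in the 20 Gy libraries. The CD11c gene Itgax had 6540, 4007 and 4491 in the combined libraries, against 7937, 6746 and 4558 in the 20 Gy libraries, so both genes of the sort were present in all 6. Library 3 of the 20 Gy group stood apart. The rank correlation of its genes with the other 20 Gy libraries was 0.898 and 0.912, against 0.98 between those 2, and 0.96 to 0.966 among combined libraries. Normalized counts summed over 15 melanoma genes were 339, 490 and 1564 in the combined libraries, against 384, 319 and 18172 in the 20 Gy libraries, so that library was far above the rest. They were 198, 183 and 5465 in the fusion protein libraries and 219, 162 and 2146 in the untreated libraries. Library 3 was thus the highest of its group in all 4 groups, though most of all with 20 Gy. The same held for sums of NF-kB target, glycolysis and chemokine genes, but not for every list, T cell genes being 1 exception. NF-kB target sums of library 3 were 116146 (combined), 237603 (20 Gy), 141188 (fusion protein) and 181661 (untreated). A difference that goes with library 3 was therefore not confined to the 20 Gy group, and its source was not tested. The share with a read among 1479 genes of olfactory, vomeronasal or trace amine receptors, which sorted leukocytes are not known to use, was 64.1%, 15.1% and 44.6% in the combined libraries, against 84.9%, 64.7% and 14.3% in the 20 Gy libraries. It was 5.41% to 29.1% in the other 6 libraries. Reads in mitochondrially encoded genes made up 10.7%, 12.8% and 14.3% of the combined libraries and 11.8%, 11.6% and 18.6% of the 20 Gy libraries. The parts of these differences in the results below were not tested beyond the fits that leave a library out or add the receptor level.

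With the fusion protein added to 20 Gy, more genes rose than fell at the adjusted threshold. Genes that type I interferon induces rose nearly as a group, Ifit3b, Oas3 and Usp18 among them, while the lectin gene Cd209a and the receptor gene Fgfr1 fell. Of the 18274 genes, 154 rose (0.843%) and 34 fell (0.186%), together 188 (1.03%). At an unadjusted p under 0.05 (limma) the excess of rises was gone, with 805 higher (4.41%) and slightly more, 838, lower (4.59%). The median log2 fold change was 2.16 over the genes that rose (0.79 to 7.17) and −2.25 over those that fell (−4.99 to −0.72), against −0.02 over all tested genes. All 188 had 3 combined values on 1 side of all 3 values with 20 Gy, while among all tested genes 1528 (8.36%) had every combined value above and 1746 (9.55%) had every one below. Groups that do not overlap, called separate below, were thus common among genes that did not pass. Of the 154 that rose, 42 were on a list of 50 type I interferon-induced genes, 49 were on that list or one of interferon gamma-induced genes, and 87 were on none of the 39 lists used. Of the 34 that fell, 3 were on a list.

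**Figure D1:**
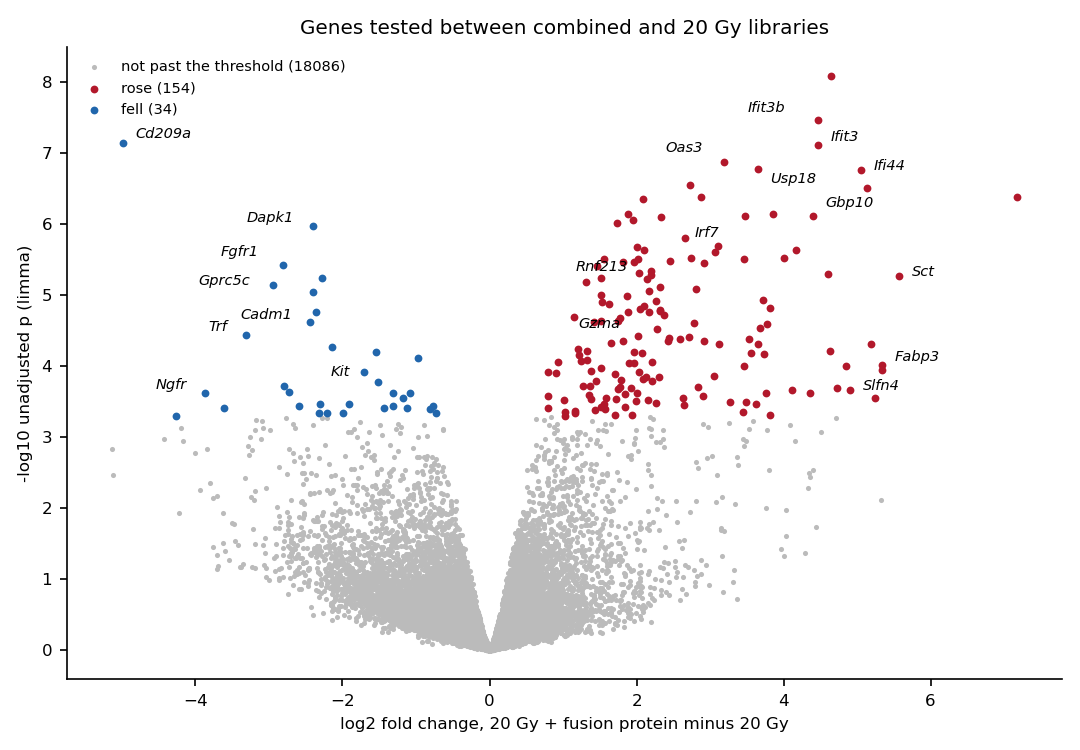
The horizontal axis is the log2 fold change of 20 Gy + fusion protein minus 20 Gy and the vertical axis is −log10 of the unadjusted limma p, with 1 point for each of 18274 genes, red for the 154 that rose and blue for the 34 that fell. Ifit3b, Ifit3, Oas3 and Ifi44 lie at the top right, and Cd209a stands apart at the top left with a log2 fold change of −4.99.

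How many genes passed depended on the libraries. Without combined library 1, 2 or 3 in turn, 70, 119 and 67 genes rose and 12, 13 and 9 fell. Without 20 Gy library 1, 2 or 3, 78, 70 and 177 rose and 8, 9 and 24 fell. Over these 6 fits, 66 of the 154 risen genes and 8 of the 34 fallen genes passed in all, and 14 and 15 passed in none. The 2 libraries at the inner edge of the difference were mostly the same ones. Combined library 2 was the lowest of its group in 125 of the 154 risen genes (81.2%, against 40.7% of all tested genes), and 20 Gy library 3 was the highest of its group in 108 (70.1%, against 41.6%). Without both libraries numbered 3, 101 genes rose and 8 fell. With the level of the olfactory and related receptor genes as a covariate, 108 of the 154 risen and 17 of the 34 fallen genes passed.

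Type I interferon-induced genes made up the clearest group. Of the 50 listed, 49 were tested, all 49 were higher with the fusion protein, 42 rose and 0 fell. Among all tested genes 48.4% were higher and 0.843% rose. Their median log2 fold change was 2.72, against −0.02 over all tested genes, and 48 of the 49 had all 3 combined values above all 3 values with 20 Gy, against 8.36% of all tested genes. The 1 member not tested was Ifi44l, which had too few reads. Summed over the list, normalized counts were 368498, 232965 and 384688 in the combined libraries, against 44085, 45276 and 80261 in the 20 Gy libraries, so even the lowest combined library was well above the highest with 20 Gy. The number that rose was 26, 40 and 26 without combined library 1, 2 or 3, and 28, 26 and 43 without 20 Gy library 1, 2 or 3. With the level of the olfactory and related receptor genes as a covariate, 35 of them rose. In such bulk samples, fewer cells of a type and less RNA per cell cannot be told apart, which holds for every level given here.

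Ifit3b and Ifit3 belong to the family of proteins with tetratricopeptide repeats that interferon induces and that restrict viral RNA. The normalized count of Ifit3b was 4112, 3047 and 4765 in the combined libraries, against 130.2, 146 and 283 in the 20 Gy libraries, a log2 fold change of 4.47 ± 0.34 (limma adjusted p = 0.000317). For Ifit3 it was 11990, 8293 and 13094 in the combined libraries, against 351, 350.4 and 979 in the 20 Gy libraries, a log2 fold change of 4.46 ± 0.37 (limma adjusted p = 0.000355). The lowest combined value of each was several times the highest value with 20 Gy, which was that of library 3. The 2 genes are near copies and may share reads, as may others of the family, so their separate values are uncertain. Ifit2 had 20657, 11527 and 21042 in the combined libraries, against 676, 743 and 2386 in the 20 Gy libraries (4.01 ± 0.47, limma adjusted p = 0.00184). Ifit1bl1 had 3346, 2672 and 4160.3 in the combined libraries, against 169, 166 and 228 in the 20 Gy libraries (4.16 ± 0.48, limma adjusted p = 0.00171). Ifit1, whose protein binds viral RNA that lacks the marks of a host cap, had 4539.8, 4035 and 6984 in the combined libraries, against 222, 261 and 1339 in the 20 Gy libraries (3.56 ± 0.58, limma adjusted p = 0.0124). All 5 thus rose without overlap, with 20 Gy library 3 the highest of its group each time, and Ifit1 passed in 2 of the 6 fits (adjusted p 0.000272 to 0.0836) that leave out 1 library, the others in all 6.

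The 5 genes lie beside each other on chromosome 19 between positions 34550694 and 34650009 (GENCODE vM21, build GRCm38). Ifit3 spans chr19:34583531-34588731 and Ifit3b spans chr19:34607970-34613401. Promoters of 4 risen interferon-induced genes with the core of the interferon-stimulated response element (GAAA, any 2 bases, GAAA, on either strand) are shown next, because this motif was commoner among risen genes. Each runs from 250 bases before to 50 bases after the RefSeq transcription start (GRCm38.p6), 5′ to 3′ on the gene's own strand, with the motif in capitals (TTTC, any 2 bases, TTTC where it lies on the other strand).

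Ifit3b (chr19:34607707-34608006, plus strand): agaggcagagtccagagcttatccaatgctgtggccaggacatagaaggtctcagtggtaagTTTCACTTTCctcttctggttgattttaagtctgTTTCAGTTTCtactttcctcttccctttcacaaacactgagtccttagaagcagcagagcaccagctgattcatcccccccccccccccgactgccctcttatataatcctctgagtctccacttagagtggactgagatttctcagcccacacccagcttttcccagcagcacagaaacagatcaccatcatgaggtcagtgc

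Ifit3 (chr19:34583279-34583578, plus strand): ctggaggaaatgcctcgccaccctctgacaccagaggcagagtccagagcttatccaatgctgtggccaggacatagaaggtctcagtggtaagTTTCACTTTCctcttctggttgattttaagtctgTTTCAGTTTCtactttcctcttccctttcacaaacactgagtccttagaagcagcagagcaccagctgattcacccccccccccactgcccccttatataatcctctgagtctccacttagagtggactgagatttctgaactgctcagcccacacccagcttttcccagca

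Oas3 (chr5:120777610-120777909, minus strand): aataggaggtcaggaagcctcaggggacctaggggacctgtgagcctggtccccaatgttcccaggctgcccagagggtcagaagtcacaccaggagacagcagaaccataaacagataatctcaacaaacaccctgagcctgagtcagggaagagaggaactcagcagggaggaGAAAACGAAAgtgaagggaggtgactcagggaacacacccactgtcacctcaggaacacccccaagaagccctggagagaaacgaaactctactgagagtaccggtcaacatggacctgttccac

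Ddx58 (chr4:40239776-40240075, minus strand): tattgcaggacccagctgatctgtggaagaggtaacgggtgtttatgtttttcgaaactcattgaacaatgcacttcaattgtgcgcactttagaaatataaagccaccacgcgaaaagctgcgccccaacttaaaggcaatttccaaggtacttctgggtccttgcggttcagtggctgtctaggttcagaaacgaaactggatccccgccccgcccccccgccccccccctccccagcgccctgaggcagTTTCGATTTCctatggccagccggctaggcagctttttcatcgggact

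With the first transcribed base counted as 0, the first base of the motif lies at −188 and −154 from the start in Ifit3b, at −156 and −122 in Ifit3, at −75 in Oas3, and at 2, which is inside the transcript, in Ddx58. Ifit3b and Ifit3 share an identical run of 169 bases that holds both of their motifs, so they are not separate examples. Of the 154 risen genes 108 had such a window in the RefSeq table, and 36 of these (33.3%) held the motif in at least 1 window. Among fallen genes it was 1 of 24 (4.17%), and among all tested genes 459 of 11625 (3.95%). A match describes the letters only and does not show that a factor binds there.

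Other interferon-induced genes of known function rose as clearly. Oas3 makes short oligoadenylates that switch on an RNA-cutting enzyme, and its normalized count was 7289, 5718 and 7711 in the combined libraries, against 524, 660 and 1233 in the 20 Gy libraries, a log2 fold change of 3.19 ± 0.28 (limma adjusted p = 0.00046). Usp18, which removes the ubiquitin-like protein ISG15 and dampens interferon receptor signalling, had 7401, 5151 and 7712 in the combined libraries, against 367, 451 and 890.0 in the 20 Gy libraries, a log2 fold change of 3.65 ± 0.32 (limma adjusted p = 0.00046). Irf7, the transcription factor that drives interferon alpha genes, had 26922, 18117 and 26654 in the combined libraries, against 1318, 1738 and 4130.4 in the 20 Gy libraries, a log2 fold change of 3.47 ± 0.36 (limma adjusted p = 0.000858). In each of the 3 genes library 2 was the lowest of the combined group and library 3 the highest of the 20 Gy group, with a wide gap between them. Ifi44 had 7703, 4071 and 6486 in the combined libraries, against 138, 137 and 289 in the 20 Gy libraries, and its log2 fold change of 5.05 ± 0.45 was the highest on the list (limma adjusted p = 0.00046). Cmpk2, a mitochondrial nucleotide kinase, changed by 2.88 ± 0.28 (limma adjusted p = 0.000684), and Ifi27l2a by 2.72 ± 0.25 (limma adjusted p = 0.000637). Rtp4, Tor3a and Trim30a rose by 2.66 ± 0.29, 2.01 ± 0.23 and 1.89 ± 0.19 on the log2 scale (limma adjusted p = 0.00137, 0.00167 and 0.000858). All of these passed in each of the 6 fits that leave out 1 library. Its neighbours Trim30c and Trim30d rose too, by 3.86 ± 0.39 and 2.02 ± 0.31 (limma adjusted p = 0.000858 and 0.00895), and may share reads with it.

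Some strongly raised genes of the group were less steady. Slfn4, a Schlafen gene of myeloid cells, had 34271, 11147 and 37381 in the combined libraries, against 605, 565 and 1557 in the 20 Gy libraries, with combined library 2 well under the other 2. This was a log2 fold change of 4.90 ± 0.92 (limma adjusted p = 0.0291), and it passed in 2 of the 6 fits (adjusted p 0.0331 to 0.157) that leave out 1 library. Isg15, the ubiquitin-like protein itself, had 4272, 2889 and 7060.4 in the combined libraries, against 125, 198 and 1245 in the 20 Gy libraries (3.81 ± 0.79, limma adjusted p = 0.0482), with 20 Gy library 3 far above the other 2, and passed in 1 of the 6 fits (adjusted p 0.00336 to 0.232). Mx1 and Mx2, dynamin-like GTPases that block viruses, rose by 3.12 ± 0.49 and 3.06 ± 0.35 on the log2 scale (limma adjusted p = 0.0101 and 0.00172), and Mx1 passed in 3 of the 6 fits (adjusted p 0.0104 to 0.0662). Siglec1, a receptor for sialic acid on macrophages, had 3659, 1422 and 3149 in the combined libraries, against 172, 122 and 280.1 in the 20 Gy libraries, a log2 fold change of 3.81 ± 0.53 (limma adjusted p = 0.00467), and passed in all 6.

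**Figure D2:**
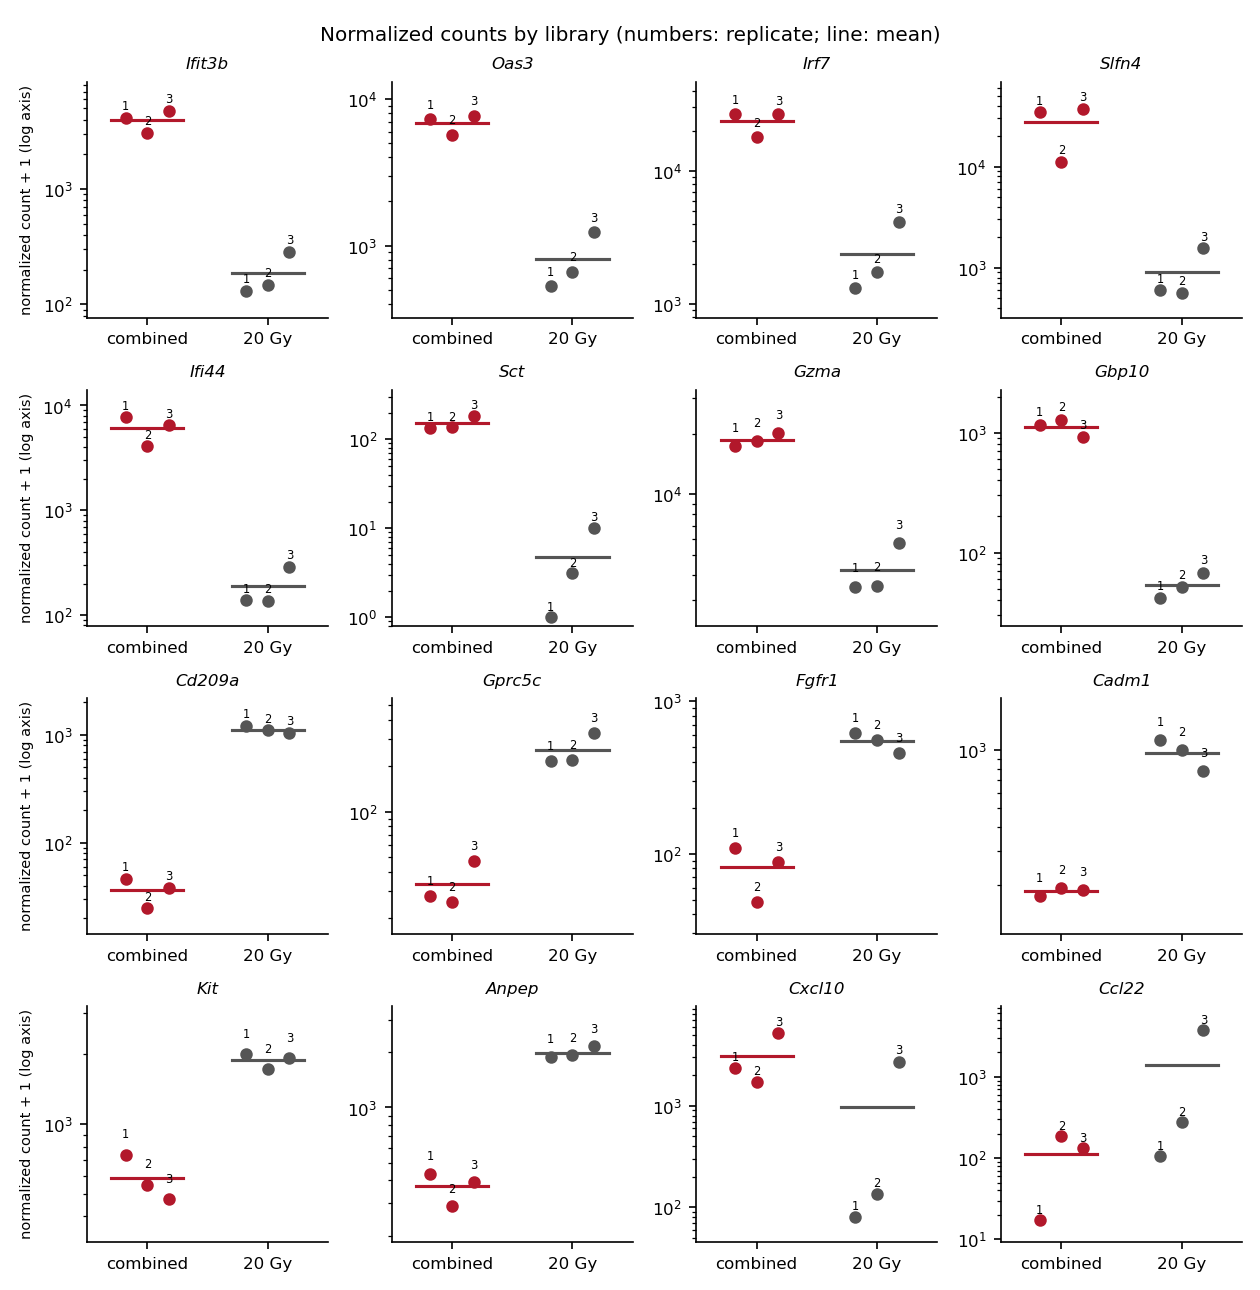
Each panel plots the normalized count + 1 (log axis) of 1 gene in the 3 combined libraries, at left in red, and the 3 libraries with 20 Gy, at right in grey, with the replicate number above each point and a line at the mean. The groups do not overlap in any panel but those of Cxcl10 and Ccl22, where 20 Gy library 3 stands far above the other 2 libraries of its group.

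Genes that sense foreign or misplaced nucleic acid rose in part. Of 28 listed, 27 were tested, 25 were higher, 10 rose and 0 fell, and the median log2 fold change was 1.42. Of all tested genes, 48.4% were higher and 0.843% rose. Ddx58, which encodes the RNA sensor RIG-I, had a normalized count of 6907, 5330 and 5939 in the combined libraries, against 1308, 1411 and 1521 in the 20 Gy libraries, a log2 fold change of 2.09 ± 0.20 (limma adjusted p = 0.000684). Its relatives Ifih1 (MDA5) and Dhx58 (LGP2) rose by 2.13 ± 0.38 and 2.10 ± 0.29 on the log2 scale (limma adjusted p = 0.022 and 0.00451). All 3 helicases of this family therefore rose, with no overlap between groups, and Ifih1 passed in 2 of the 6 fits (adjusted p 0.00575 to 0.133) that leave out 1 library, the other 2 in all 6. Among receptors for DNA, Tlr9, which senses DNA in endosomes, had 3456, 2345 and 3955 in the combined libraries, against 912, 1132 and 1339 in the 20 Gy libraries (1.51 ± 0.22, limma adjusted p = 0.0061). The Ifi200 family of DNA-binding proteins was led by Ifi209, with 17574, 14124 and 16469 in the combined libraries, against 3388, 3429 and 3693 in the 20 Gy libraries (2.19 ± 0.27, limma adjusted p = 0.0023). Ifi203 rose by 1.87 ± 0.25 (limma adjusted p = 0.00355), and Ifi206, Ifi213 and Ifi214, on no list, rose by 3.11 ± 0.35, 3.71 ± 0.50 and 2.92 ± 0.46 (limma adjusted p = 0.00167, 0.00395 and 0.00963). Of these Ifi214 passed in 4 of the 6 fits (adjusted p 0.0268 to 0.0565) that leave out 1 library and the others in all 6, and since they are similar in sequence they may share reads. Cgas, the cytosolic DNA sensor, did not pass, with a log2 fold change of 1.17 ± 0.33 (limma adjusted p = 0.172).

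Zbp1, which binds nucleic acid in the left-handed Z form and can start necroptosis, had 9554, 6753 and 10266 in the combined libraries, against 1017, 1050.1 and 2835 in the 20 Gy libraries, a log2 fold change of 2.59 ± 0.40 (limma adjusted p = 0.00929). It passed in 2 of the 6 fits (adjusted p 0.00123 to 0.0623) that leave out 1 library. It was the only one of 16 tested genes of inflammasomes, pyroptosis and necroptosis to rise, and none fell. Its partner in necroptosis Mlkl had 860.3, 655 and 1137 in the combined libraries, against 132, 163 and 336 in the 20 Gy libraries, without overlap, yet its log2 fold change of 2.15 ± 0.57 did not pass (limma adjusted p = 0.137). Adar, an RNA-editing enzyme, and Eif2ak2 (PKR), a kinase that halts translation, rose by 1.42 ± 0.21 and 1.77 ± 0.26 (limma adjusted p = 0.0061 and 0.00569).

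Of the genes that make, receive and relay interferon signals, 25 of 32 listed were tested, 5 rose and 0 fell, with a median log2 fold change of 0.33. The share that rose among all tested genes was 0.843%. The 7 listed members with too few reads to test were all interferon genes (Ifna1, Ifna2, Ifna4, Ifna5, Ifnb1, Ifnl2 and Ifnl3). Among the 5 that rose were Usp18 and Irf7, given above, and Stat2 and Irf9. Stat2, a signal transducer of type I interferon, had 9126, 4153 and 8240.3 in the combined libraries, against 1712, 1666 and 1666 in the 20 Gy libraries (2.01 ± 0.38, limma adjusted p = 0.031). Its partner Irf9 had 3322, 2862 and 3501 in the combined libraries, against 1660.5, 1849 and 2099 in the 20 Gy libraries (0.79 ± 0.16, limma adjusted p = 0.0411). The combined values of both lay above all values with 20 Gy, though Stat2 and Irf9 passed in 1 of the 6 fits (adjusted p 0.0191 to 0.169) and 1 of the 6 fits (adjusted p 0.0368 to 0.221) that leave out 1 library. In these fits the number of the list that rose was 3 or 4.

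Interferon gamma-induced genes moved less evenly. All 33 listed were tested, 29 were higher, 7 rose and 0 fell, with a median log2 fold change of 1.57. By comparison, 48.4% of all tested genes were higher and 0.843% rose. Gbp10 had 1158, 1279.6 and 911 in the combined libraries, against 40.5, 50.4 and 66.7 in the 20 Gy libraries, a log2 fold change of 4.40 ± 0.45 (limma adjusted p = 0.000858). It encodes a guanylate-binding protein, one of a family of GTPases that attack the vacuoles of microbes, and Gbp4 rose by 1.95 ± 0.20 (limma adjusted p = 0.000894). Reads may be shared within this family. The immunity-related GTPases Tgtp2 and Irgm2 rose by 2.71 ± 0.42 and 1.81 ± 0.28 (limma adjusted p = 0.0091 and 0.00962), passing in 3 of the 6 fits (adjusted p 0.00237 to 0.0623) and 2 of the 6 fits (adjusted p 0.00748 to 0.0675) that leave out 1 library. Ifng itself did not pass, at 635, 818 and 1390.5 in the combined libraries, against 216, 248 and 878 in the 20 Gy libraries (log2 fold change 1.31 ± 0.77, limma adjusted p = 0.725), and neither did its targets Cxcl9 and Cxcl10. Cxcl9 had 407, 774 and 750.1 in the combined libraries, against 392, 484 and 2604 in the 20 Gy libraries (−0.36 ± 0.78, limma adjusted p = 0.977). Cxcl10, a chemokine for activated T cells, had 2355, 1700.4 and 5181 in the combined libraries, against 78.3, 133 and 2730.1 in the 20 Gy libraries, so 20 Gy library 3 lay within the combined range and the other 2 far below it (3.16 ± 1.42, limma adjusted p = 0.539). The number of the list that rose was 2, 4 and 2 without combined library 1, 2 or 3, and 3, 2 and 12 without 20 Gy library 1, 2 or 3.

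Of 23 class I genes 22 were higher, 5 rose and 0 fell, with a median log2 fold change of 0.84. Over all tested genes the shares were 48.4% higher and 0.843% risen. H2-T22, a class I molecule outside the classical set, had 7284, 6508 and 8465 in the combined libraries, against 983, 1217 and 2044 in the 20 Gy libraries (2.45 ± 0.29, limma adjusted p = 0.00184). H2-Q7 had 13386, 11132 and 12963 in the combined libraries, against 2826, 3450.2 and 5304 in the 20 Gy libraries (1.74 ± 0.25, limma adjusted p = 0.0061). Nlrc5, the transactivator of class I genes, had 10148, 7029 and 9443 in the combined libraries, against 3529.6, 3590.5 and 4210.3 in the 20 Gy libraries (1.22 ± 0.20, limma adjusted p = 0.013). All 3 were higher in every combined library than in any with 20 Gy. H2-Q4 and H2-T24 rose by 1.39 ± 0.27 and 2.16 ± 0.42 (limma adjusted p = 0.0348 and 0.036). Calls of Nlrc5, H2-Q4 and H2-T24 held in 2 of the 6 fits (adjusted p 0.0143 to 0.0885), 1 of the 6 fits (adjusted p 0.00365 to 0.188) and 0 of the 6 fits (adjusted p 0.0889 to 0.16) that leave out 1 library, and reads of H2-Q and H2-T genes may be shared among near copies. B2m, the light chain of class I, did not pass, at 0.96 ± 0.35 (limma adjusted p = 0.371), nor did the peptide transporter gene Tap1, at 0.84 ± 0.29 (limma adjusted p = 0.341). The number of class I genes that rose was 2, 3 and 2 without combined library 1, 2 or 3, and 2, 2 and 9 without 20 Gy library 1, 2 or 3.

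Of 14 class II genes, 11 were lower with the fusion protein and 6 had every combined value under every value with 20 Gy, as had 9.55% of all tested genes. None passed, and the median log2 fold change was −0.73. H2-Ab1, a chain of the class II molecule, had 22258, 17701 and 20698 in the combined libraries, against 40327, 40588 and 52901 in the 20 Gy libraries (−1.14 ± 0.36, limma adjusted p = 0.249). Cd74, the invariant chain, had 45748, 45477 and 42623 in the combined libraries, against 77036, 76498 and 103160 in the 20 Gy libraries (−0.93 ± 0.34, limma adjusted p = 0.379). The groups did not overlap in either gene, and 20 Gy library 3 was the highest. H2-Eb1 and H2-Aa were at −1.09 ± 0.34 and −0.97 ± 0.39 (limma adjusted p = 0.256 and 0.469).

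Many risen genes lay side by side in the genome. Of the 153 with coordinates, 75 (49.0%) had another risen gene starting within 100000 bases, against 2.55% of the other tested genes. Besides the Ifit genes, such runs included the Schlafen genes Slfn5, Slfn9 and Slfn8 and then Slfn1, Slfn4 and Slfn3 on chromosome 11, and the Ifi200 genes on chromosome 1. Among the others were runs of Gbp genes on chromosome 5, Trim30 genes on chromosome 7, H2-T genes on chromosome 17 and Ms4a genes on chromosome 19. A run of 5 on chromosome 14 held Phf11a, Phf11b, Phf11c, Phf11d and Setdb2, and a run on chromosome 16 held Parp14, Dtx3l and Parp9. Phf11a, Phf11d, Setdb2 and Parp14 each passed in at most 2 of the 6 fits that leave out 1 library. Families of similar sequence may share reads, so such runs are not independent measurements. Phf11c had 1874, 1475 and 1645 in the combined libraries, against 327, 343 and 315 in the 20 Gy libraries (2.33 ± 0.24, limma adjusted p = 0.000858). Parp9, an ADP-ribosyltransferase family member, and Dtx3l, the ubiquitin ligase it works with, had log2 fold changes of 1.73 ± 0.18 and 1.56 ± 0.18 (limma adjusted p = 0.000928 and 0.00184). Parp9 had 4787, 4169 and 4546 in the combined libraries, against 1289, 1132 and 1695 in the 20 Gy libraries, with no overlap.

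Transcripts of Pml, Sp100 and Daxx, whose proteins are found in PML nuclear bodies, rose. These 3 genes were on no list and were picked after their values were seen, and other genes of such bodies were not counted. Pml had 5889, 5694 and 5148 in the combined libraries, against 1377, 1516 and 1906 in the 20 Gy libraries (1.81 ± 0.22, limma adjusted p = 0.00184). Sp100 had 16462, 14979 and 14852 in the combined libraries, against 5948, 6599 and 5845 in the 20 Gy libraries (1.33 ± 0.22, limma adjusted p = 0.0122). Daxx had 5706, 4759.8 and 7608 in the combined libraries, against 875, 1044 and 1797 in the 20 Gy libraries (2.33 ± 0.30, limma adjusted p = 0.00295). Every combined library was higher than every 20 Gy library in all 3, and Sp100 passed in 2 of the 6 fits (adjusted p 0.0323 to 0.0776) that leave out 1 library, the others in all 6. Rnf213, a very large ubiquitin ligase, rose too, with 62752, 60146 and 63822 in the combined libraries, against 10511, 10786 and 22299 in the 20 Gy libraries (2.19 ± 0.27, limma adjusted p = 0.0022).

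Several of the largest rises were in genes on no interferon list. Sct, the hormone secretin, which in mice also marks plasmacytoid dendritic cells, had 134, 135 and 185 in the combined libraries, against 0, 2.14 and 9.16 in the 20 Gy libraries, a log2 fold change of 5.57 ± 0.69 (limma adjusted p = 0.00234), and passed in all 6 fits that leave out 1 library. It was the only one of 14 plasmacytoid dendritic cell genes to rise, and the list's median was 0.09. Siglech, a defining gene of that cell, had 2029, 1475 and 1337 in the combined libraries, against 1299.7, 2178 and 3231 in the 20 Gy libraries, with overlap. Fabp3, a fatty acid carrier of heart and muscle, had 209, 109 and 320.2 in the combined libraries, against 1.76, 1.07 and 18.3 in the 20 Gy libraries (5.34 ± 0.91, limma adjusted p = 0.0165). Adgrb1, an adhesion receptor for dying cells first known from brain, had 282, 146 and 491 in the combined libraries, against 15, 7.5 and 1.31 in the 20 Gy libraries (5.33 ± 0.93, limma adjusted p = 0.0187). Both were near 0 in some 20 Gy libraries, so their fold changes depend on the pseudocount, and they passed in 2 of the 6 fits (adjusted p 0.00318 to 0.116) and 3 of the 6 fits (adjusted p 0.0336 to 0.124). Prm1, a protamine of sperm, had 58.4, 21.2 and 114 in the combined libraries, against 1.76, 0 and 0 in the 20 Gy libraries, too few reads with 20 Gy for a fold, and passed in 1 of the 6 fits (adjusted p 0.049 to 0.204). The predicted gene Gm5960, next to Ly6a on chromosome 15, had 894, 429 and 951 in the combined libraries, against 3.52, 10.7 and 1.31 in the 20 Gy libraries and the largest fitted rise, 7.17 ± 0.69 (limma adjusted p = 0.000684). Gm47242, another predicted gene and the highest point in the plot of fold change against p, had 996, 910 and 852 in the combined libraries, against 30.8, 47.1 and 31.4 in the 20 Gy libraries (4.64 ± 0.31, limma adjusted p = 0.00015). Both were picked with their values in view, since the rule for naming genes leaves out predicted ones.

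Ltbp1, which holds latent TGF-beta in the matrix, had 579.8, 315 and 641 in the combined libraries, against 60.7, 38.6 and 24.9 in the 20 Gy libraries (3.62 ± 0.72, limma adjusted p = 0.0382) and was the only 1 of 19 TGF-beta pathway genes to rise, though it passed in 0 of the 6 fits (adjusted p 0.0743 to 0.19) that leave out 1 library. Scarf1, a scavenger receptor that takes up dying cells, had 151, 94.4 and 159 in the combined libraries, against 21.1, 20.4 and 19.6 in the 20 Gy libraries (2.63 ± 0.51, limma adjusted p = 0.0347), and also passed in 0 of the 6 fits (adjusted p 0.0657 to 0.188). Of 18 genes of dying-cell uptake it alone rose, while 15 were lower, none past the threshold. Cfb, complement factor B, had 217, 110.1 and 236 in the combined libraries, against 6.16, 13.9 and 26.2 in the 20 Gy libraries (3.65 ± 0.58, limma adjusted p = 0.0102), passing in 3 of the 6 fits (adjusted p 0.00579 to 0.0782). All 3 were higher in every combined library than in any 20 Gy library.

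The steepest fall past the threshold was that of Cd209a, a lectin receptor of the DC-SIGN family found on dendritic cells that derive from monocytes and on cDC2 (chr8:3743397-3748984). Its normalized count was 44.9, 23.6 and 37.1 in the combined libraries, against 1203, 1099 and 1040.5 in the 20 Gy libraries, a log2 fold change of −4.99 ± 0.41 (limma adjusted p = 0.000355). All combined values lay far below all values with 20 Gy, 20 Gy library 3 lay beside the others of its group, and the gene passed in all 6 fits that leave out 1 library. Of the same family, Cd209d had 6.29, 29.9 and 4.32 in the combined libraries, against 92.4, 118 and 89 in the 20 Gy libraries. Cd209e had 2.7, 0 and 2.59 in the combined libraries, against 29.9, 41.8 and 28.8 in the 20 Gy libraries. Both were separate between the groups too, yet did not pass (−3.23 ± 0.78 and −3.85 ± 0.92, limma adjusted p = 0.0941 and 0.0919), and reads may be shared in this family.

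Growth factor and surface receptors were among the other genes that fell. Fgfr1, a fibroblast growth factor receptor, had 108, 47.2 and 87.2 in the combined libraries, against 614, 556 and 458 in the 20 Gy libraries (−2.80 ± 0.34, limma adjusted p = 0.00191). Anpep, the peptidase CD13 of myeloid cells, had 434, 289 and 391 in the combined libraries, against 1895, 1935 and 2150.3 in the 20 Gy libraries (−2.44 ± 0.36, limma adjusted p = 0.00615). Gprc5c, an orphan receptor, had 27, 24.4 and 46.6 in the combined libraries, against 215, 218 and 327 in the 20 Gy libraries (−2.95 ± 0.38, limma adjusted p = 0.00286). None of these overlapped between groups, and each passed in all 6 fits that leave out 1 library. Ngfr, the p75 neurotrophin receptor, had 5.39, 18.9 and 18.1 in the combined libraries, against 115, 188 and 344 in the 20 Gy libraries (−3.87 ± 0.73, limma adjusted p = 0.031) but passed in 0 of the 6 fits (adjusted p 0.0647 to 0.145). Kit, the receptor for stem cell factor, on early haematopoietic cells, mast cells and some dendritic cells, had 734, 547 and 473 in the combined libraries, against 1998, 1724 and 1919 in the 20 Gy libraries (−1.71 ± 0.30, limma adjusted p = 0.0195), passing in 2 of the 6 fits (adjusted p 0.0452 to 0.124). Sort1, a sorting receptor of the Golgi, had 266, 133 and 216 in the combined libraries, against 1087, 911 and 883 in the 20 Gy libraries (−2.27 ± 0.29, limma adjusted p = 0.00242).

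Of intracellular and secreted products, Dapk1, a kinase linked to cell death, had 132, 96 and 110.5 in the combined libraries, against 554, 498 and 760.4 in the 20 Gy libraries (−2.40 ± 0.25, limma adjusted p = 0.000993). Dbn1, the actin-binding protein drebrin, had 102, 85.7 and 105 in the combined libraries, against 563, 443 and 561 in the 20 Gy libraries (−2.41 ± 0.32, limma adjusted p = 0.00328). Trf, the iron carrier transferrin, had 109.7, 85.7 and 150.2 in the combined libraries, against 1389, 1102 and 920.0 in the 20 Gy libraries (−3.31 ± 0.51, limma adjusted p = 0.00863). Again no combined value reached any 20 Gy value. Dapk1 and Dbn1 passed in all 6 fits that leave out 1 library and Trf passed in 5 of the 6 fits (adjusted p 0.0167 to 0.0533). P3h2, Stxbp6, Rnf150, Amot and Rgs7bp fell as well, with log2 fold changes of −3.61 ± 0.72, −2.79 ± 0.52, −2.59 ± 0.52, −2.32 ± 0.48 and −2.30 ± 0.46 (limma adjusted p = 0.0411, 0.0276, 0.0405, 0.0461 and 0.0382). Each of these 5 passed in at most 1 of the 6 fits. Falls were smaller in Tspan13, a tetraspanin of the cell surface, with 1314, 1310.3 and 1275 in the combined libraries, against 2361, 2147 and 2174 in the 20 Gy libraries (−0.78 ± 0.16, limma adjusted p = 0.0407) and the drug exporter Abcc1 with 942, 1043 and 928 in the combined libraries, against 1514, 1530.1 and 1777 in the 20 Gy libraries (−0.72 ± 0.15, limma adjusted p = 0.0461), and both passed in 0 of the 6. The other fallen genes picked for their high counts were Arrb1, an adaptor that switches receptors off, and Plekha5, at −0.81 ± 0.16 and −1.09 ± 0.21 (limma adjusted p = 0.0423 and 0.031).

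Markers of conventional dendritic cells were mostly lower with the fusion protein, few of them past the threshold. Of 15 cDC1 genes, 14 were lower, 1 fell and 8 had every combined value below every 20 Gy value, as had 9.55% of all tested genes. The median log2 fold change was −1.03. Cadm1, an adhesion molecule of cDC1, had 174, 193 and 189 in the combined libraries, against 1128, 999.7 and 780 in the 20 Gy libraries (−2.36 ± 0.33, limma adjusted p = 0.00495) and passed in all 6 fits that leave out 1 library. Xcr1, the chemokine receptor that defines these cells, had 233, 222 and 172 in the combined libraries, against 1132, 931 and 903 in the 20 Gy libraries, without overlap, and did not pass (−2.24 ± 0.53, limma adjusted p = 0.0846). Clec9a, their receptor for dead cells, had 1927, 591 and 1137 in the combined libraries, against 2146, 1691 and 708 in the 20 Gy libraries, with overlap (−0.33 ± 0.64, limma adjusted p = 0.974). Of 8 genes shared by conventional dendritic cells 7 were lower and 1, Kit, fell. Flt3, the growth factor receptor of the lineage, and Zbtb46, its transcription factor, did not pass, with 1606, 856 and 953 in the combined libraries, against 3669, 3484 and 2620.1 in the 20 Gy libraries for Flt3 (−1.56 ± 0.44, limma adjusted p = 0.182). Zbtb46 had 832, 527 and 689 in the combined libraries, against 1434, 1315 and 1398 in the 20 Gy libraries (−1.04 ± 0.32, limma adjusted p = 0.223). Of 12 cDC2 genes 10 were lower and 1, Cd209a, fell. Mgl2, a lectin of cDC2, had 17.1, 1.57 and 6.91 in the combined libraries, against 43.1, 66.4 and 514 in the 20 Gy libraries, separate but short of the threshold (−4.01 ± 0.98, limma adjusted p = 0.0992).

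**Figure D3:**
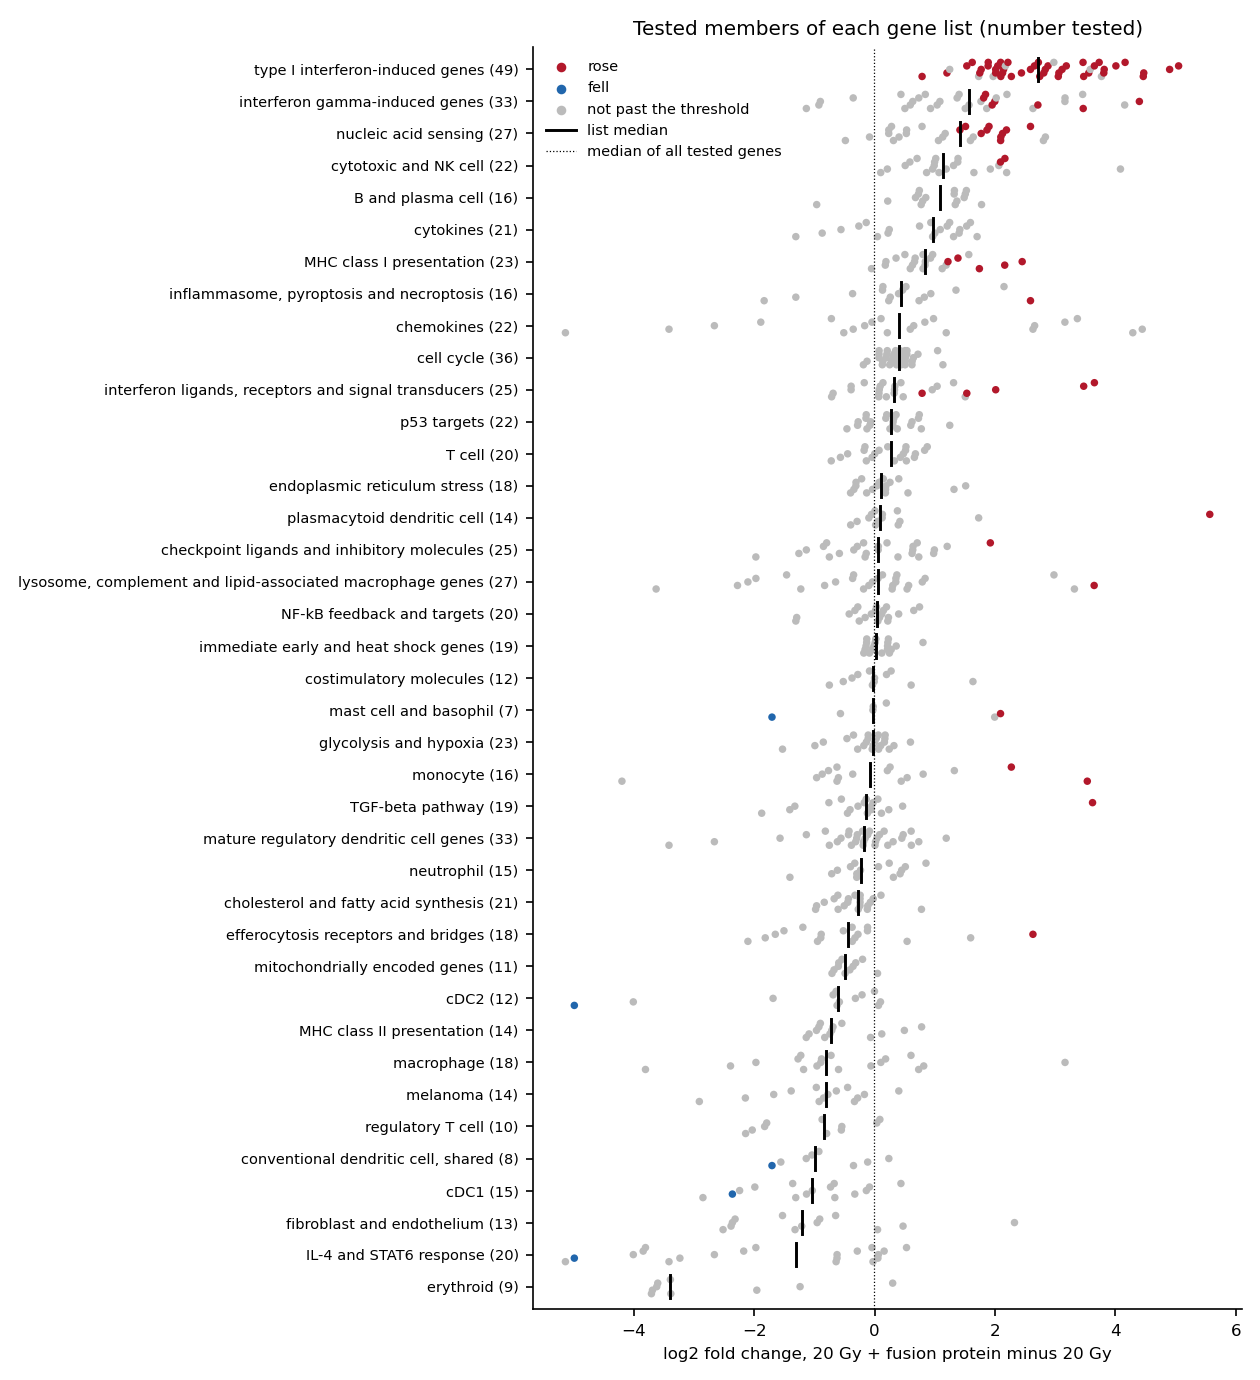
Each point is the log2 fold change (20 Gy + fusion protein minus 20 Gy, horizontal axis) of 1 tested gene on the list named at left, red where it rose, blue where it fell and grey where it did not pass, with a black bar at the list's median and a dotted line at the median of all tested genes. The type I interferon list is at the top with a median of 2.72 and the erythroid list at the bottom with −3.39, where no gene passed.

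The Ccl22 program, which the series' title names, did not change past the threshold. Of 33 genes of mature regulatory dendritic cells none rose or fell, 13 were higher, and the median log2 fold change was −0.18. Ccl22 had 16.2, 185 and 134 in the combined libraries, against 105, 274 and 3751 in the 20 Gy libraries, so both groups spread widely and overlapped (−2.66 ± 1.44, limma adjusted p = 0.682). Its fold change stayed negative, at −3.75 to −1.18 without single libraries, −4.26 with the receptor covariate, −3.60 by edgeR and −3.63 by DESeq2. Without radiation Ccl22 had 11.6, 284 and 92.3 in the fusion protein libraries, against 123, 417 and 658 in the untreated libraries (−2.22 ± 1.44, limma adjusted p = 0.821). So its direction was steady, while its size was too uncertain to pass. Ccl17, the other ligand of the same receptor, had 2.7, 3.93 and 0 in the combined libraries, against 15, 9.64 and 129.6 in the 20 Gy libraries (−3.42 ± 1.41, limma adjusted p = 0.483). Every combined value lay below every 20 Gy value, but counts were low and 20 Gy library 3 was far above the others. Ccr7, by which mature dendritic cells find their way to lymph nodes, had 509, 1699.6 and 2044 in the combined libraries, against 389.8, 683 and 6545 in the 20 Gy libraries (0.01 ± 0.97, limma adjusted p = 1). Fscn1, an actin bundler of mature dendritic cells, had 452, 1739 and 1558 in the combined libraries, against 454, 955 and 6832 in the 20 Gy libraries (−0.42 ± 0.97, limma adjusted p = 0.978). In both, the 20 Gy values ran from the lowest or near it to the highest, the last in library 3. Without 20 Gy library 3 the list's median was 0.44, of opposite sign, as it was without combined library 1 (0.16), and 1 gene of it, Ccl5, rose. Ccl5, a chemokine that T and NK cells also make, had 9472, 10225 and 9784 in the combined libraries, against 3048, 3928 and 6663 in the 20 Gy libraries (1.19 ± 0.27 with all libraries, limma adjusted p = 0.0747).

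Genes induced by IL-4 through STAT6, which include Ccl17 and Ccl22, were lower in 16 of 20 tested, with a median log2 fold change of −1.31, and 1, Cd209a, fell. Ccl24, an eotaxin, had 0.899, 0 and 0 in the combined libraries, against 99.4, 52.5 and 14.4 in the 20 Gy libraries, so it was all but missing from the combined libraries, without passing (limma adjusted p = 0.0919). Mrc1, the mannose receptor, had 69.2, 33.8 and 166 in the combined libraries, against 1336, 870.0 and 959 in the 20 Gy libraries (−3.81 ± 1.08, limma adjusted p = 0.177), also separate and short of the threshold.

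Checkpoint and cytokine genes stayed mostly short of the threshold. Of 25 checkpoint and inhibitory genes, 1 rose, Lgals9, which encodes galectin-9 and had 3858, 3597 and 4195 in the combined libraries, against 616, 964 and 1794 in the 20 Gy libraries (1.92 ± 0.36, limma adjusted p = 0.0282), passing in 1 of the 6 fits (adjusted p 0.00377 to 0.142) that leave out 1 library. Cd274 (PD-L1) had 2321, 3408 and 7654 in the combined libraries, against 1359.6, 1361 and 7101 in the 20 Gy libraries, with overlap (0.73 ± 0.72, limma adjusted p = 0.909). None passed among 12 costimulatory genes, 22 chemokine genes or 21 cytokine genes, whose medians were −0.02, 0.40 and 0.96. Without 20 Gy library 3 the chemokine median was 1.73 and 1 gene of it, Ccl5, rose, and without 20 Gy library 1 the median was −0.23. In the fits without those same libraries, 20 Gy library 3 and then library 1, the cytokine median was 1.51 and 0.17, and the costimulatory median was 0.51 and −0.29. Il12b, a subunit of interleukin-12, had 97.1, 184 and 477 in the combined libraries, against 124, 90 and 2436 in the 20 Gy libraries (−0.56 ± 1.20, limma adjusted p = 0.977). Tnfsf10, the death ligand TRAIL, had 860.3, 786 and 923 in the combined libraries, against 248, 267 and 493 in the 20 Gy libraries, without overlap (1.42 ± 0.38, limma adjusted p = 0.14). Il15, a growth factor of NK and CD8 T cells, had 321, 241 and 540.3 in the combined libraries, against 215, 128 and 113 in the 20 Gy libraries (1.25 ± 0.45, limma adjusted p = 0.37), likewise separate.

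Genes of NK and cytotoxic T cells, which can carry CD11c, were all on 1 side. All 22 tested were higher, 2 rose and 11 were separate, with a median log2 fold change of 1.13. Of all tested genes 48.4% were higher, 0.843% rose, and in 8.36% every combined value was above every 20 Gy value. The number that rose was 1, 1 and 1 without combined library 1, 2 or 3, and 2, 1 and 6 without 20 Gy library 1, 2 or 3. Normalized counts summed over the list were 75746, 92025 and 114985 in the combined libraries, against 20574, 22852 and 40490 in the 20 Gy libraries, so every combined sum was above every 20 Gy sum. Such sums are led by the most abundant genes. The mean log2 level, in which each gene counts equally, was 9.36, 10.2 and 10.6 in the combined libraries, against 8.16, 8.26 and 9.69 in the 20 Gy libraries. By that measure the groups overlapped, with combined library 1 under 20 Gy library 3. Gzma, the protease granzyme A, had 17274, 18355 and 20101 in the combined libraries, against 3491, 3528 and 5735 in the 20 Gy libraries (2.17 ± 0.30, limma adjusted p = 0.00495), and passed in all 6 fits that leave out 1 library. Gzmb, granzyme B, had 20161, 31130 and 49807 in the combined libraries, against 804, 1218 and 6512 in the 20 Gy libraries, without overlap, but did not pass (4.08 ± 0.88, limma adjusted p = 0.058). Cma1, a chymase known from mast cells, had 452, 400.3 and 327 in the combined libraries, against 128, 106 and 55 in the 20 Gy libraries (2.09 ± 0.38, limma adjusted p = 0.0228) and passed in 2 of the 6 fits (adjusted p 0.0385 to 0.122). Ncr1, an activating receptor that defines NK cells, had 4302, 4156 and 3139 in the combined libraries, against 2025, 2205 and 1579.7 in the 20 Gy libraries, separate but not past the threshold (1.00 ± 0.30, limma adjusted p = 0.223). Outside the list, Sh2d1b2, an adaptor of NK cell receptors that has a near copy beside it, had 362, 512 and 378 in the combined libraries, against 10.6, 32.1 and 11.8 in the 20 Gy libraries (4.61 ± 0.57, limma adjusted p = 0.0023), and passed in all 6. The NK receptor genes Klra7, Klra1 and Klrg1, chosen after their values were seen, rose by 1.79 ± 0.32, 1.72 ± 0.33 and 1.55 ± 0.31 on the log2 scale (limma adjusted p = 0.0237, 0.0347 and 0.0382), each passing in at most 1 of the 6 fits, and Klra genes may share reads. Whether the combined sorts held more NK or cytotoxic cells, and whether such cells took part in other rises, was not tested.

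Of 18 macrophage genes none passed and 12 were lower, with a median of −0.80. This was −0.47 without combined library 2 and −0.43 without 20 Gy library 3. Fcgr1, the high-affinity Fc receptor, was among the 6 that were higher, at 3576, 1819 and 4885 in the combined libraries, against 209, 186 and 1119 in the 20 Gy libraries. It was separate between the groups but short of the threshold (3.16 ± 0.96, limma adjusted p = 0.226). Of 16 monocyte genes 8 were higher, 8 were lower, 2 rose and 0 fell. Ly6c2, which marks inflammatory monocytes and is itself raised by interferon, had 13719, 9155 and 15265 in the combined libraries, against 601, 1083 and 1891 in the 20 Gy libraries (3.53 ± 0.55, limma adjusted p = 0.00931). Ms4a4c had 7044, 3977 and 7733 in the combined libraries, against 1098, 1008 and 1734 in the 20 Gy libraries (2.27 ± 0.34, limma adjusted p = 0.00717). Both were separate and passed in 2 of the 6 fits (adjusted p 0.00641 to 0.0623) and 3 of the 6 fits (adjusted p 0.00579 to 0.0542) that leave out 1 library, while the list's median was −0.08. Fn1, which encodes fibronectin and is on the same list, had 155, 79.4 and 227 in the combined libraries, against 1766, 1559 and 6395 in the 20 Gy libraries. It was separate in the other direction, short of the threshold (−4.20 ± 0.92, limma adjusted p = 0.0616). The 15 neutrophil, 20 T cell and 10 regulatory T cell genes had medians of −0.23, 0.27 and −0.83 and none passed. The medians of the monocyte, neutrophil and T cell lists turned in sign when single libraries were left out. That of the regulatory T cell list was −0.31 without combined library 1, −1.79 without 20 Gy library 1 and −0.13 without 20 Gy library 3. Foxp3, which defines regulatory T cells, had 24.3, 222 and 52.7 in the combined libraries, against 72.2, 409 and 688 in the 20 Gy libraries (−2.03 ± 1.17, limma adjusted p = 0.72).

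B and plasma cell genes summed to 23684, 36830 and 12995 in the combined libraries, against 29333, 25600 and 4031 in the 20 Gy libraries, so their median of 1.09 rested on 20 Gy library 3 and was −0.35 without it. Melanoma genes had a median of −0.81, and 1.13 without that library. Fibroblast and endothelial genes had medians of −1.21 and 0.14 in the same way. Erythroid genes summed to 1535, 1174 and 1740 in the combined libraries, against 4307, 3272 and 4696 in the 20 Gy libraries, lower in each combined library, with a median of −3.39 and none past the threshold. The globin gene Hba-a1 had 68.3, 14.9 and 58.7 in the combined libraries, against 458, 363 and 848 in the 20 Gy libraries (−3.69 ± 1.81, limma adjusted p = 0.615). Mast cell and basophil genes had a median of −0.02, with Cma1 up and Kit down, and it was 0.80 without combined library 2 and −0.93 without 20 Gy library 3. No gene of the B cell, melanoma, stromal or erythroid lists rose or fell.

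**Figure D4:**
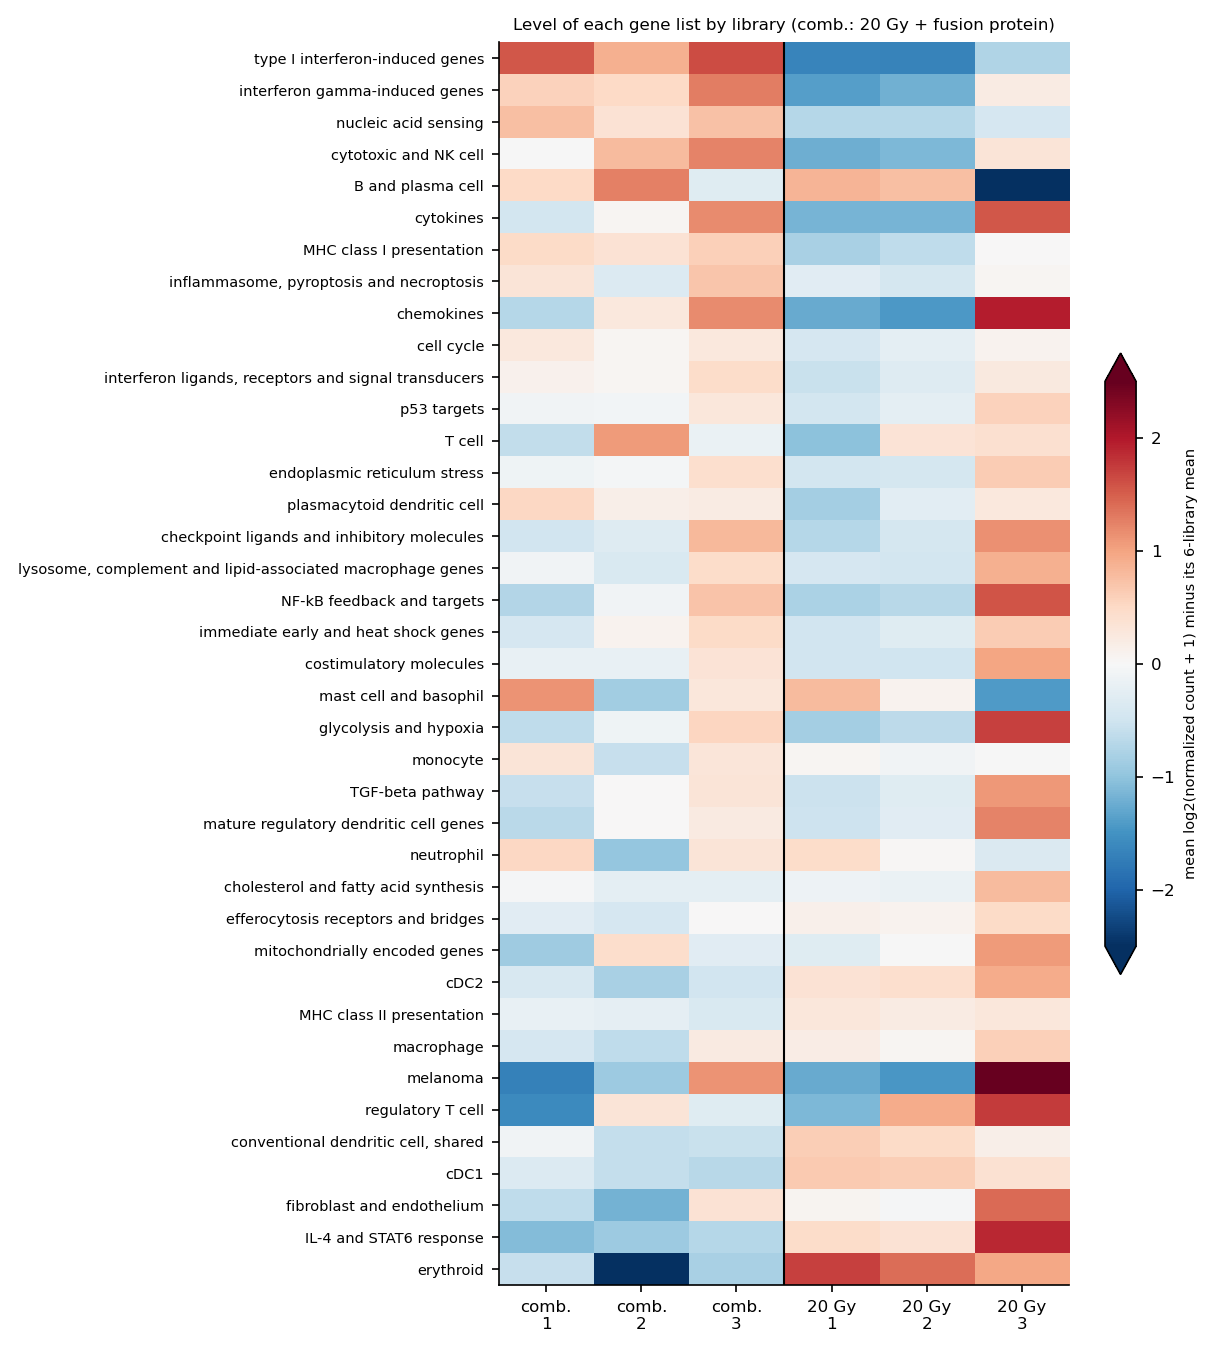
Each row is a gene list and each column a library, the 3 combined libraries at left and the 3 with 20 Gy at right, and colour gives the mean log2(normalized count + 1) of the list minus its mean over the 6 libraries, in log2 units. The top row separates the groups, as do other rows, among them nucleic acid sensing, class I, class II, cDC1 and erythroid genes. In the melanoma, B cell, chemokine and glycolysis rows 20 Gy library 3 stands out.

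No gene of the growth, p53, stress or metabolism lists passed. Of 36 cell cycle genes 34 were higher and 16 had every combined value above every 20 Gy value. The shares among all tested genes were 48.4% and 8.36%. The median log2 fold change was 0.40. Tpx2, a spindle protein, had 1105, 973 and 1579 in the combined libraries, against 449, 494 and 719.8 in the 20 Gy libraries (1.14 ± 0.34, limma adjusted p = 0.22). The p53 targets, which radiation induces, had a median of 0.28 over 22 genes. Aen, a nuclease among them, had 545, 485 and 440.2 in the combined libraries, against 334, 297 and 321 in the 20 Gy libraries (0.62 ± 0.16, limma adjusted p = 0.136). Both genes were separate between the groups. Medians were 0.04 for 20 NF-kB targets, −0.03 for 23 glycolysis and hypoxia genes and −0.27 for 21 genes of cholesterol and fatty acid synthesis. They were 0.11 for 18 genes of endoplasmic reticulum stress, 0.02 for 19 immediate early and heat shock genes, and −0.49 for 11 mitochondrially encoded genes. Lysosome, complement and lipid-associated macrophage genes had a median of 0.06 over 27, and Cfb alone rose. Among the 7 lists other than cell cycle and p53, the median of mitochondrially encoded genes alone kept its sign in all 6 fits that leave out 1 library. It ran from −0.80 without combined library 2 to −0.09 without 20 Gy library 3 and was −0.18 without combined library 1. Cd36, a lipid scavenger receptor on the list of lysosome genes, had 244, 167 and 337 in the combined libraries, against 1345, 943 and 869 in the 20 Gy libraries (−2.10 ± 0.57, limma adjusted p = 0.152). The groups were separate, short of the threshold.

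The fusion protein was also given without radiation, which allows its effect to be set beside the one with radiation. The fusion protein group had the same 2 doses without 20 Gy, and the untreated group had neither treatment. These 6 libraries are none of those compared above, although 1 model over all 12 gave both comparisons their estimate of spread. Against untreated, 107 genes rose (0.586%) and 29 fell (0.159%), 136 in all (0.744%). Of these, 109 also passed with radiation, which is 80.1% of the 136 and 58.0% of the 188, and all 109 had the same sign, 94 up and 15 down. All 154 genes that rose with radiation were higher and all 34 that fell were lower with the fusion protein alone, with medians of 1.82 and −1.56. The share of all tested genes with the same sign in both comparisons is not given here, so these counts lack a background.

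The largest effects recurred. Ifit3b had 2969.9, 1998 and 2657 in the fusion protein libraries, against 219, 115 and 114 in the untreated libraries, a log2 fold change of 4.13 ± 0.34 (limma adjusted p = 0.000379). Oas3 had 5357, 4513 and 5177 in the fusion protein libraries, against 413, 542 and 539 in the untreated libraries, a log2 fold change of 3.34 ± 0.28 (limma adjusted p = 0.000379). Cd209a had 58.2, 44.6 and 16.5 in the fusion protein libraries, against 1035, 711 and 862 in the untreated libraries, a log2 fold change of −4.57 ± 0.41 (limma adjusted p = 0.000653). Slfn4 had 22961, 1346 and 13883 in the fusion protein libraries, against 108, 39.9 and 41.4 in the untreated libraries, a log2 fold change of 7.04 ± 0.92 (limma adjusted p = 0.00501). In all 4 genes the groups stayed apart. The type I interferon list had a median of 2.79 with 40 genes up, and the nucleic acid sensing list 0.76 with 9 up. Sct, Trf and Cadm1 passed only with radiation, and had log2 fold changes of 3.42 ± 0.69, −2.01 ± 0.51 and −1.47 ± 0.33 without it (limma adjusted p = 0.0541, 0.129 and 0.0884).

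The difference between the effects with and without radiation, the interaction, passed for no gene (0%; limma, smallest adjusted p = 0.9999). An unadjusted p under 0.05 was reached by 188 genes (1.03%), of which 6 were among the genes that rose or fell with radiation. Evenly spread p-values would put a fraction of 0.05 of all genes there. The 188 are therefore no excess, and the test may be too strict in these data. By edgeR 0 genes passed and by DESeq2 1. For Sct the interaction was 2.15 ± 0.98 (unadjusted p = 0.051, limma), for Cd209a −0.42 ± 0.58 (unadjusted p = 0.486, limma) and for Ifit3b 0.34 ± 0.48 (unadjusted p = 0.497, limma). So genes past the threshold in only 1 of the comparisons were not shown to respond differently, and a p that misses the threshold does not show that effects were equal. The gene of smallest interaction p was Xlr3b, a member of an X-linked family with near copies, which was picked for that p, and Upp2, Gm15477, Col10a1, Srgap1 and Col4a4 followed, none of them past the adjusted threshold. Xlr3b had 5.39, 3.93 and 2.59 in the combined libraries, against 29, 30 and 24.9 in the 20 Gy libraries, and 16.9, 5.07 and 7.69 in the fusion protein libraries, against 1.5, 1.25 and 0 in the untreated libraries, so with radiation it was lower and without radiation higher with the fusion protein.

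**Figure D5:**
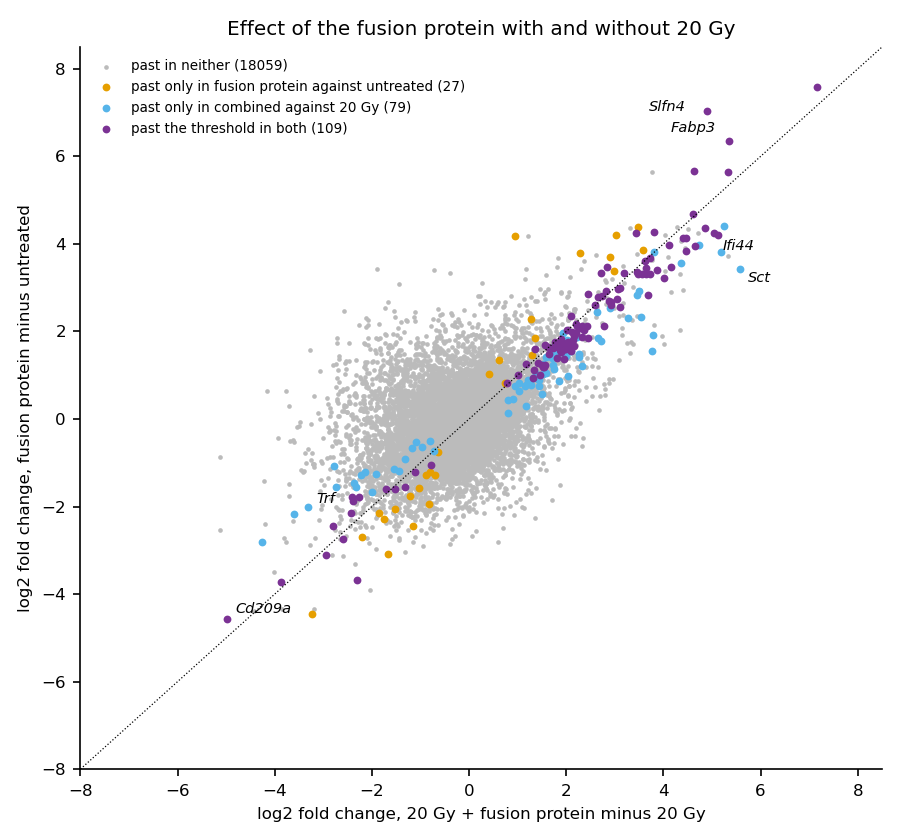
Each of 18274 genes is placed by its log2 fold change with radiation (20 Gy + fusion protein minus 20 Gy, horizontal axis) and without it (fusion protein minus untreated, vertical axis), with the dotted line marking equal values. The 109 genes past the threshold in both (purple) lie in the upper right or lower left, as do the 79 past it only with radiation (light blue) and the 27 only without (orange).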

How the data were processed

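Per the labels' protocols, tumours were taken apart with DNase I and collagenase IV, live CD45+ CD11c+ cells were sorted, RNA was taken in Trizol and libraries were made with a stranded total RNA kit for small inputs. The submitters' processing notes name FastQC, Trimmomatic, STAR, featureCounts, DESeq2 and mm10, whose versions the sources used here do not give. The deposited signal is a normalized count per gene for each of 12 libraries, that is, counts divided by a size factor per library. Whole reads were recovered from it: 100% of values were whole multiples of 1 read within 0.001 (largest deviation 1.4e-08), and edgeR on these reads called 130 genes higher and 22 lower, so depth is known. Depth and p-values cover counting and the spread between libraries only. The file gave gene IDs, and names and coordinates came from GENCODE vM21, where 55141 of 55401 IDs (99.53%) had a match. Of the IDs, 54349 matched with the same version, the version was ignored for the others, and IDs without a match kept the ID as a name.

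Genes that reached a normalized count of 10 in 3 or more libraries were tested with limma 3.58.1 (variance trend, 12 libraries in 4 groups, no covariate) on log2(normalized count + 1), in R 4.3.3, with Benjamini-Hochberg adjustment over all of them. edgeR 4.0.16 and DESeq2 1.42.0 were alternatives on recovered reads. Scripts were tested on simulated data. Other alternatives were the pseudocount, the filter, scaling, the variance trend, the 6 libraries alone, sample weights, the replicate number as a block, the level of receptor genes that leukocytes are not known to use as a covariate, and leaving out each library. Sums of a list are over its members in the file. Promoter windows came from RefSeq (GRCm38.p6).

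The gene lists and the rule for naming genes were written with earlier results of these data known. The rule took 10 genes of the study's subject, the 15 largest rises and falls that were separate between groups with a mean of at least 50, predicted genes left out, members of smallest p of each list, the 6 genes of smallest interaction p, and called genes of highest mean count. Other genes named were chosen after their values were seen.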

Additional observations from a re-analysis of the deposited data

How the results depend on the processing

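Genes that rose (154) numbered 142 to 165 with another pseudocount, filter or scaling or with the 6 compared libraries alone, 130 by edgeR, 111 with the receptor level as a covariate, and 105 without a variance trend. They numbered 335 by DESeq2, 558 with sample weights, 1293 with weights fitted gene by gene, 101 without both libraries numbered 3, and 67 to 177 without single libraries. Genes that fell (34) numbered 22 by edgeR, 21 with the covariate, 215 by DESeq2, 278 and 1144 with the weights, 8 without both libraries numbered 3, and 8 to 24 without single libraries. The gene-by-gene weights and the fit without both libraries numbered 3 were chosen after seeing the data. The 2 weightings gave 20 Gy library 2 weights of 0.245 and 5.88, so they disagree and neither is relied on. The first of them, called sample weights here, also gave a warning that its convergence tolerance could not be reached. DESeq2 called all 154 and 34, edgeR 128 and 22 of them, and the fit with the covariate 108 and 17 of them. Type I interferon-induced genes that rose (42) numbered 33 to 49 in the fits that keep every library and 26 to 43 without single libraries. The interaction passed for 0 genes in every fit but DESeq2, where it passed for 1. What causes these differences was not tested.

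With the replicate number as a block, 516 genes rose and 318 fell, with all 154 and 34 among them, 48 type I interferon-induced genes rose, and the interaction passed for 0 genes. The labels do not say what the numbers stand for, so they were not taken to pair the libraries. Deviations from the group means, compared only between combined and 20 Gy libraries, correlated at 0.505, 0.00951 and 0.382 for the same number. Combined library 2 correlated best with 20 Gy library 3, at 0.116. In all 4 groups, though, library 3 had the highest melanoma, NF-kB target, glycolysis and chemokine sums and the lowest B and plasma cell sum. Its B and plasma cell sums were 12995 (combined), 4031 (20 Gy), 3369 (fusion protein) and 4456 (untreated). A difference shared by number stays in the spread of the main fit, and its source was not tested.

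Of single genes, those that changed sign had not passed. Ccr7 (0.01) was −0.033 with upper-quartile scaling, −1.13 with the covariate, −0.83 by edgeR, −0.84 by DESeq2 and −0.81 to 1.23 without single libraries. Clec9a (−0.33) was 0.21 with the covariate and −0.80 to 0.11 without single libraries. Cxcl9 (−0.36) was 0.26 and 0.30 with the 2 weightings, 0.36 without both libraries numbered 3 and −0.86 to 0.50 without single libraries. Fscn1 (−0.42) was 0.58, 0.23, 0.43 and −1.25 to 0.70 in the same order, and Il12b (−0.56) was 0.34, 1.01, 0.34 and −1.43 to 0.95. Siglech was 0.11 with sample weights and 0.040 without both libraries numbered 3, against −0.40 ± 0.50.

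Genes with a few reads in a group have no usable fold change, the 14462032 to 23985496 reads per library limit low genes, and 3 libraries a group limit every test.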
